A study of Mus musculus with 11 samples.

Results

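The interleukins are the secreted proteins, and with them the receptor chains, decoys and inhibitors, through which immune and tissue cells signal to each other. They were followed here in whole mouse tumours as the genes whose annotated symbol begins with Il and a digit and that had at least 1 array probe detected, with a detection p under 0.05, on 2 or more arrays. All 44 interleukin genes with a named probe met this rule, out of 10623 genes measured, and all 65 of their probes were kept. Symbols were to hand only for probes of the authors' own table of 19215 probes, so interleukin genes outside it are not analysed here. They comprised 16 ligands, 23 receptor chains, 4 decoys or inhibitors (Il1r2, Il13ra2, Il1rn and Il18bp) and 1 enzyme, Il4i1, an amino acid oxidase named for its induction by IL-4. Of the 44 genes, 29 were detected on all 11 arrays and 13 had several kept probes, of which the brightest was used.

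The tumours were fibrosarcomas labelled MCA, grown under the skin of C57BL/6 mice aged 10 to 12 weeks. Each tumour was injected with DX (doxorubicin, an anthracycline that damages DNA) at 2.9 mg/kg in 50 μL of PBS, or belonged to a PBS group, once its area had reached 25 to 45 mm2, and was taken 2 days later. There were 2 tumours from FPR1-/- hosts given DX, 3 from FPR1-/- hosts given PBS, 3 from wt hosts given DX and 3 from wt hosts given PBS. FPR1 is formyl peptide receptor 1, a receptor that guides neutrophils and other phagocytes, and in this design the genotype is that of the host mouse. The number after MCA in the source names rises by 1 with each sample, and whether it marks a different tumour line was not resolved from the labels. Nothing in the labels says whether each sample was 1 animal, so p-values measure only the spread between these samples. No probe was named for the deleted gene, so the genotype labels were not checked against expression.

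As background, interleukin 1 alpha, interleukin 1 beta, interleukin 18 and interleukin 33 belong to the IL-1 family, whose receptors signal through MyD88 to NF-kB and which are held in check by a receptor antagonist, by decoy receptors and by a binding protein. Interleukins 6 and 11 signal through the shared chain gp130 to STAT3. The common gamma chain serves the receptors of interleukins 2, 4, 7, 15 and others, and the IL-10 family includes the restraining cytokine IL-10 and the epithelial and stromal cytokine IL-24. In tumours, interleukin 1 beta is a classical product of infiltrating myeloid cells.

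Levels are log2 normalised intensities, with a detection p-value against negative control probes for each array. The 11 arrays had median raw intensities of 110 to 169 and detected 35.7% to 40.2% of the 45281 probes. The pair of arrays on chip 2, from the first wt PBS and the second FPR1-/- PBS tumour, were the dimmest, at 110 and 118. The third wt DX array stood apart for the interleukins. It was the highest of the 11 arrays for 25 of the 44 genes, against 13.6% of all genes, and its median departure from each gene's mean was 0.51 for the interleukins and -0.04 for all genes. For DX in wt hosts, genotype under DX and the difference of responses, sign and overlap counts over all 44 genes are therefore given with and without it. So are the differences of the genes described most fully. Counts and medians by family or role are given with all arrays only. The third wt PBS array was the lowest of the 11 for 12 of the 44 genes, and the share of all genes lowest there was not counted. Its median departure from each gene's mean was -0.30 for the interleukins and 0.02 for all genes. All 12 listed fibroblast and fibrosarcoma genes were measured, and their mean log2 level per array was 11.35 to 11.41 in FPR1-/- DX, 11.57 to 11.64 in FPR1-/- PBS, 11.31 to 11.48 in wt DX and 11.32 to 11.65 in wt PBS tumours.

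The 5 genes whose values carry most of the results below, and that had a promoter entry, are shown first by the 250 bases before their annotated start, from RefSeq on build GRCm38.p6. They are Il1b (chr2:129371140-129371389, minus strand), Il1r2 (chr1:40085843-40086092, plus strand), Il1a (chr2:129309973-129310222, minus strand), Il6 (chr5:30012864-30013113, plus strand) and Il13ra2 (chrX:147429193-147429442, minus strand). The annotated span of Il1r2, Il1a and Il1b reaches further upstream than the start used for the window, so the Il1r2 window lies wholly, that of Il1a mostly and that of Il1b in part inside the gene. Each reads 5′ to 3′ on the gene's own strand, and capitals mark matches to any of 4 motifs.
Il1b: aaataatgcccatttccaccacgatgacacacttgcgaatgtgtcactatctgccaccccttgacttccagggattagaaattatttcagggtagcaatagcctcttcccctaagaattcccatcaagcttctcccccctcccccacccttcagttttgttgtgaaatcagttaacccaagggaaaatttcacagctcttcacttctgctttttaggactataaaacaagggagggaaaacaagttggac
Il1r2: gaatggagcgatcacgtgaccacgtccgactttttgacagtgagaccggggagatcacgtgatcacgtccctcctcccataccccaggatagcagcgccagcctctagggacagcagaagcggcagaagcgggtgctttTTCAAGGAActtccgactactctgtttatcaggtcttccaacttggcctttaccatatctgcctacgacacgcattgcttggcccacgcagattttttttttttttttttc
Il1a: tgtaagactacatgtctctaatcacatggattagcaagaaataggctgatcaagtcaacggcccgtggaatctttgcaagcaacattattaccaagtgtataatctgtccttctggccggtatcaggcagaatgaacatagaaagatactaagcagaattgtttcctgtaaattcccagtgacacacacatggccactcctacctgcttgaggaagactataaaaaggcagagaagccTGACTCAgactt
Il6: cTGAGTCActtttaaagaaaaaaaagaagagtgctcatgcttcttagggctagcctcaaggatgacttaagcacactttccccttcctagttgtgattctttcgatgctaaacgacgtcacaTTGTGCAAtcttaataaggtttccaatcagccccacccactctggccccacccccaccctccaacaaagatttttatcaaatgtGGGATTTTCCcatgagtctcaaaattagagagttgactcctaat
Il13ra2: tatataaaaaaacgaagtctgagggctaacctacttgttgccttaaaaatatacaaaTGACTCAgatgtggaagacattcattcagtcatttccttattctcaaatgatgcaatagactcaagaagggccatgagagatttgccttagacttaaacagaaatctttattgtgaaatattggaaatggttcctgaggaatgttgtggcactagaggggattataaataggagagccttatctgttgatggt
The motifs, searched on both strands and allowed to overlap, were TGANTCA (AP-1), TTCNNNGAA (STAT), GGGA followed by any base and TTTCC (NF-kB) and TTGCNNAA (C/EBP). Il6 held 3 of them, an AP-1 match from base 249 before the start, a C/EBP match from base 128 and an NF-kB match from base 44. Il1r2 held a STAT match from base 111. Il1a held an AP-1 match from base 12 and Il13ra2 one from base 193, while these letters did not occur in the Il1b window. Of the 44 genes, 32 had a window (43 windows), and AP-1 letters stood in 8 of those windows (18.6%), against 6.75% of all 32851 windows. C/EBP letters stood in 10 (23.3%, against 9.56%), STAT letters in 3 (6.98%, against 7.02%) and NF-kB letters in 2 (4.65%, against 0.356%), those of Il6 and Il16. A match is a description of letters and not a site or a cause. Il10, Il10ra, Il10rb, Il12rb1, Il15, Il17ra, Il23a, Il24, Il27ra, Il2rb, Il34 and Il7 had no entry.

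Injection of DX was first compared with PBS in wt hosts. Of the 44 interleukin genes, 2 rose, Il1b and Il1r2, none fell and 42 did not pass an adjusted p of 0.05. That is 4.55% of the interleukin genes, while 0.555% of all genes rose, 0.0659% fell and 0.621% passed in either direction. In whole tumours, fewer cells of a type and less RNA per cell cannot be told apart. The differences were positive for 33 of 44 interleukin genes (75.0%, against 45.0% of all genes), with a median log2 difference of 0.24 against -0.03 over all genes. Without the third wt DX array they were positive for 27 of 44 (61.4%, against 46.9% of all genes), with a median of 0.14 against -0.02. With all arrays the median was 0.48 for the 16 ligands, 0.97 for the 4 decoys and inhibitors and 0.16 for the 23 receptor chains.

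Il1b, which encodes interleukin 1 beta, had log2 levels of 11.71, 11.37 and 12.31 in wt DX tumours, against 10.67, 10.43 and 10.43 in wt PBS tumours. The lowest DX tumour lay above the highest PBS tumour. The log2 difference was 1.28 (SE 0.22), a 2.44-fold higher level, with a 95% interval of 0.80 to 1.77 and a limma adjusted p of 0.0319. Without the third wt DX array it was 1.03 with an adjusted p of 0.122, and it also did not pass without wt DX replicate 1 (0.107), wt PBS replicate 2 (0.0904) or 3 (0.145) or FPR1-/- PBS replicate 3 (0.0575). With chip as a fixed block it was 1.74 (adjusted p = 0.0359). The 1 wt pair within a chip, on chip 5, gave 1.88, and it consists of the third wt DX and the third wt PBS arrays described above as highest and lowest for many of these genes. Il1r2 encodes the decoy receptor that binds interleukin 1 and gives no signal. Its levels were 9.08, 8.95 and 9.49 in wt DX tumours, against 7.68, 8.21 and 8.14 in wt PBS tumours. The groups did not overlap, and the log2 difference was 1.16 (SE 0.22, adjusted p = 0.0452), or 2.23-fold. The call was lost with chip as a fixed block (1.39, adjusted p = 0.101). It was also lost without any 1 wt DX, wt PBS or FPR1-/- PBS array other than wt DX replicate 2, with adjusted p-values of 0.0575 to 0.179, the highest being without the third wt DX array (log2 difference 1.00). The same chip 5 pair gave 1.35, which rests on that array.

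**Figure D1:**
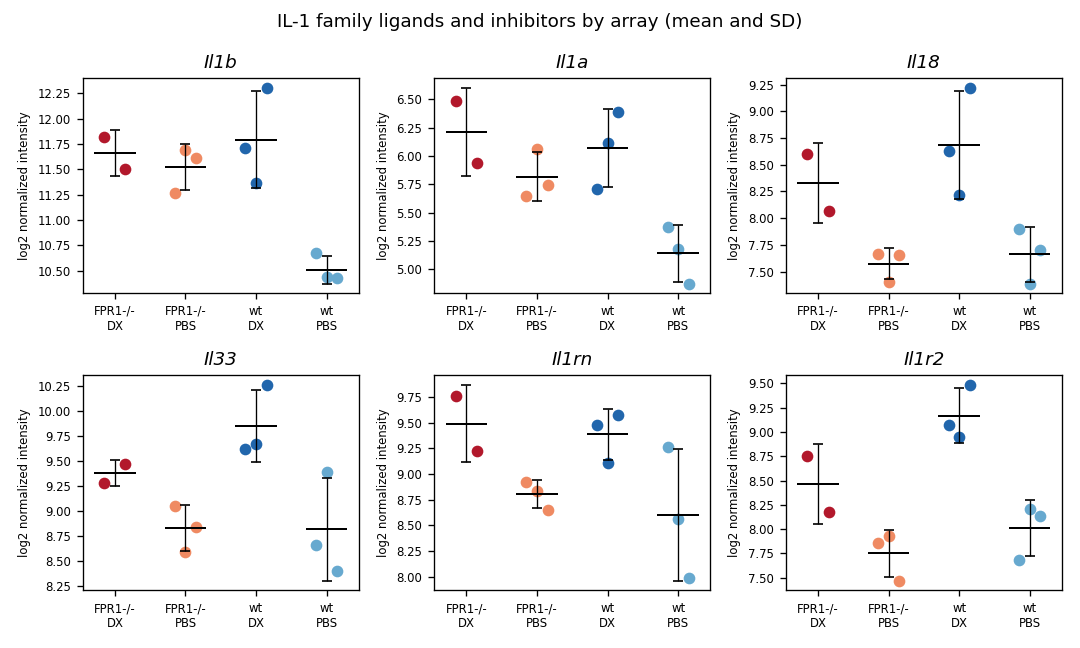
Log2 normalised intensity (vertical axes) of 6 IL-1 family genes in each tumour, with points for single arrays, horizontal bars for group means and error bars for 1 SD (n = 2 for FPR1-/- DX, n = 3 for each other group). All wt DX tumours lie above all wt PBS tumours for Il1b, Il1a, Il18, Il33 and Il1r2, and the FPR1-/- PBS tumours lie above all wt PBS tumours for Il1b and Il1a.

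The IL-1 family ligands Il1a, Il18 and Il33 were also higher in each wt DX tumour than in any wt PBS tumour without passing the adjusted test. The ligand gene Il1f10 overlapped, at 5.45, 5.05 and 5.54 in wt DX tumours, against 5.27, 5.24 and 4.90 in wt PBS tumours. Il1a, the membrane-held and intracellular form of interleukin 1, had levels of 5.71, 6.12 and 6.39 in wt DX tumours, against 5.38, 5.18 and 4.87 in wt PBS tumours, where no array detected it. The level was therefore at least 1.57-fold higher with DX (adjusted p = 0.0972, and 0.337 without the third wt DX array), where "at least" sets the DX mean against the higher, on each array, of the dim probe's own value and the lowest signal that counted as detected. Il18, an inflammasome product that drives interferon gamma, had levels of 8.63, 8.21 and 9.22 in wt DX tumours, against 7.90, 7.39 and 7.70 in wt PBS tumours. Those groups did not overlap, and the log2 difference was 1.03 (SE 0.25, adjusted p = 0.103), or 0.76 without the third wt DX array. Il33, an alarmin stored in nuclei of stromal and epithelial cells, had levels of 9.63, 9.67 and 10.27 in wt DX tumours, against 8.66, 9.39 and 8.40 in wt PBS tumours. It too showed no overlap, with a log2 difference of 1.04 (SE 0.26, adjusted p = 0.119), or 0.83 without that array. The antagonist gene Il1rn had levels of 9.48, 9.11 and 9.58 in wt DX tumours, against 9.26, 8.56 and 7.99 in wt PBS tumours, and these ranges overlapped (log2 difference 0.78, adjusted p = 0.296, and 0.69 without that array). The IL-18 binding protein gene Il18bp averaged 6.73 ± 0.29 in wt DX and 6.95 ± 0.33 in wt PBS tumours (SD, n = 3 each).

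The receptor chains of the family gave smaller differences. Il1r1, the signalling receptor, had levels of 5.67, 5.18 and 5.56 in wt DX tumours, against 5.50, 5.34 and 5.46 in wt PBS tumours, and was detected on 2 of 3 arrays in each. Il1rap, the shared accessory chain, averaged 7.61 ± 0.15 in wt DX and 7.33 ± 0.29 in wt PBS tumours. Il18r1 and Il18rap, the chains of the IL-18 receptor, had wt DX means of 7.15 and 6.90, against wt PBS means of 7.21 and 6.92. None of these 4 chains passed the test. Across the 13 IL-1 family genes, 2 rose, none fell and 11 did not pass, with a median log2 difference of 0.28.

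Outside the IL-1 family no interleukin gene passed in wt hosts. Il6, the gp130 ligand of acute inflammation, had levels of 6.32, 5.54 and 6.42 in wt DX tumours, against 4.59, 5.64 and 4.91 in wt PBS tumours. It was detected on all 3 wt DX arrays and 1 of 3 wt PBS arrays, yet the ranges overlapped (log2 difference 1.05, SE 0.29, adjusted p = 0.173, and 0.88 without the third wt DX array). Il13ra2, a decoy receptor for IL-13, had levels of 7.40, 7.46 and 8.44 in wt DX tumours, against 6.39, 7.01 and 6.24 in wt PBS tumours. The groups did not overlap (log2 difference 1.22, SE 0.27, adjusted p = 0.0828, and 0.88 without that array). Il15, a common gamma chain cytokine that sustains NK and memory T cells, had levels of 11.78, 11.74 and 11.91 in wt DX tumours, against 11.65, 11.29 and 10.54 in wt PBS tumours, again without overlap. Il4 was detected on 1 wt DX array and no wt PBS array. Counted over all 44 genes, 9 were higher without overlap in wt DX (20.5%, where all genes gave 6.26%) and 1 was lower (2.27%, where all genes gave 7.47%). Without the third wt DX array 9 were higher (20.5%, against 9.3% of all genes) and 2 lower (4.55%, against 10.5%). With all arrays the lower one was Il17rd, a receptor-like regulator of IL-17 and FGF signalling, at 6.15, 5.93 and 5.88 in wt DX tumours, against 6.41, 6.72 and 6.36 in wt PBS tumours. Its other kept probe, detected on 5 arrays, differed by 0.01.

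None of the 23 receptor chains was higher without overlap. Il10ra, the ligand-binding chain for IL-10, had levels of 9.76, 9.15 and 9.76 in wt DX tumours, against 9.30, 8.66 and 8.98 in wt PBS tumours, and Il7r, which binds IL-7, had 9.62, 9.51 and 10.03 in wt DX, against 9.56, 9.36 and 9.0 in wt PBS tumours. Both pairs overlapped. The gp130 gene Il6st had levels of 8.58, 7.99 and 8.70 in wt DX tumours, against 8.22, 8.57 and 7.94 in wt PBS tumours. Il4ra, shared by the IL-4 and IL-13 receptors, had levels of 6.31, 5.29 and 6.88 in wt DX tumours, against 6.24, 6.33 and 5.87 in wt PBS tumours. The DX ranges of both enclosed or overlapped the PBS ranges.

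**Figure D2:**
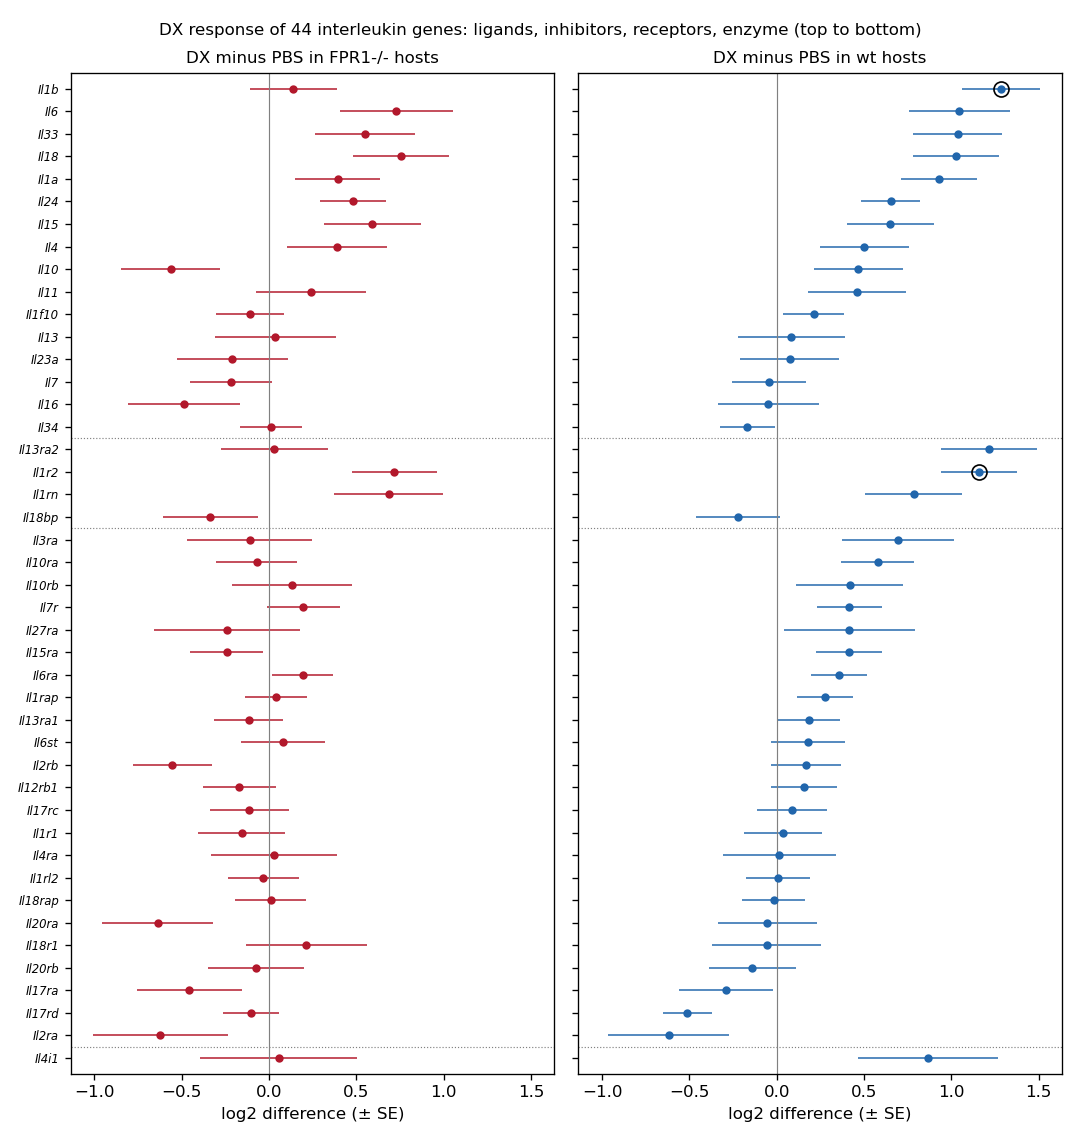
Log2 difference of DX minus PBS (horizontal axis, points with 1 SE) for each of the 44 interleukin genes in FPR1-/- hosts (left) and wt hosts (right), ordered by role and then by the wt value. Black rings mark the 2 genes that passed the adjusted test, Il1b and Il1r2, both in wt hosts.

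The same injection was compared in FPR1-/- hosts, with 2 DX tumours against 3 PBS tumours. Both DX arrays were on chip 4, and the PBS arrays were on chips 1, 2 and 5. No chip held both groups, so within FPR1-/- hosts drug and chip cannot be told apart. None of the 44 genes passed the adjusted test, and neither did any other gene (0.0% of all genes in limma). At an unadjusted p under 0.05 there were 5 interleukin genes, or 11.4%, where all genes gave 5.36%. Positive and negative differences were nearly balanced, at 23 and 21, with a median of 0.01 against -0.01 over all genes. Ligands had a median of 0.19 and receptor chains one of -0.10.

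Il1r2 had levels of 8.76 and 8.18 in FPR1-/- DX tumours, against 7.86, 7.93 and 7.47 in FPR1-/- PBS tumours. Il18 had levels of 8.60 and 8.07 in FPR1-/- DX tumours, against 7.66, 7.41 and 7.66 in FPR1-/- PBS tumours. For both genes the DX tumours lay above the PBS tumours, with log2 differences of 0.72 (SE 0.24, adjusted p = 0.718) and 0.76 (SE 0.28, adjusted p = 0.777). Il6 was detected on both FPR1-/- DX arrays, at 5.68 and 6.16, and on none of the FPR1-/- PBS arrays, whose values were 5.16, 5.34 and 5.07. That is a level at least 1.42-fold higher (adjusted p = 0.919), but the sign turned with chip as a fixed block (-0.18) and in the authors' deposited table (-0.08). Il33 had levels of 9.29 and 9.47 in FPR1-/- DX tumours, against 9.05, 8.59 and 8.84 in FPR1-/- PBS tumours, and Il1rn had 9.76 and 9.22 in FPR1-/- DX, against 8.92, 8.84 and 8.65 in FPR1-/- PBS tumours. Neither pair of groups overlapped. The other kept Il1rn probe, detected on 10 arrays, differed by 0.27, against 0.69 for the probe used. With chip as a fixed block the sign of Il33 turned (-0.33), while Il1rn stayed positive (0.72). The blocked values of Il6, Il33 and Il1rn rest on wt PBS replicate 2, the only other array on chip 4. Among the wt PBS arrays it was the highest for Il6 (5.64) and Il33 (9.39) and the middle for Il1rn (8.56).

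Il1b had levels of 11.82 and 11.50 in FPR1-/- DX tumours, against 11.26, 11.69 and 11.62 in FPR1-/- PBS tumours, which overlapped (log2 difference 0.14, 95% interval -0.41 to 0.69). Il13ra2 had 7.68 and 7.84 in FPR1-/- DX tumours, against 7.82, 7.77 and 7.59 in FPR1-/- PBS tumours (log2 difference 0.03). Il2rb, the beta chain of the IL-2 and IL-15 receptors, had 5.49 and 4.85 in FPR1-/- DX tumours, against 5.83, 5.45 and 5.89 in FPR1-/- PBS tumours (log2 difference -0.55, adjusted p = 0.885), with 1 of 2 and 2 of 3 arrays detecting it. Over the 44 genes, 7 were higher without overlap (15.9%, where all genes gave 13.3%) and 4 were lower (9.09%, where all genes gave 13.7%). The 25.0% together lie close to the 27.0% of all genes.

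Averaged over both genotypes, DX raised 1 interleukin gene of 44, Il1r2, where 0.508% of all genes rose. Its log2 difference was 0.94 (SE 0.16, adjusted p = 0.0319), and without the third wt DX array it was 0.86 (adjusted p = 0.0666). With chip as a fixed block it was 0.89 (adjusted p = 0.147). Il18 followed at 0.89 (SE 0.18, adjusted p = 0.0662), Il24 at 0.57 (SE 0.13, adjusted p = 0.0905), Il1b at 0.71 (SE 0.17, adjusted p = 0.10) and Il33 at 0.79 (adjusted p = 0.112), none of which passed. Il6 stood at 0.89 in the fit (adjusted p = 0.114) and did not pass either. No FPR1-/- PBS array and only 1 of 3 wt PBS arrays detected Il6, so its average is not a measured size. Without background correction the Il6 average was 0.26. Il2ra, the alpha chain of the IL-2 receptor, was not detected on either FPR1-/- DX array, so no average is given.

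The difference between the genotypes in their DX response was then tested. Both FPR1-/- DX arrays were on chip 4, which held no FPR1-/- PBS and no wt DX array, so chip enters this difference too. No interleukin gene passed, nor did any gene (0.0%), while 5 of the 44 had an unadjusted p under 0.05 (11.4%, against 4.69% of all genes). Differences were negative, meaning a smaller DX response in FPR1-/- than in wt hosts, for 38 of the 44 genes, and positive for 13.6% of the interleukin genes against 52.6% of all genes. The median was -0.23 against 0.02 over all genes. Without the third wt DX array 32 of 44 were negative, 27.3% were positive against 50.6% of all genes, the median was -0.12 against 0.00332, and 3 of the 44 had an unadjusted p under 0.05 (6.82%, against 3.77%). Il1b had the smallest p, with a log2 difference of -1.15 (SE 0.33, adjusted p = 0.713), or -0.89 without the third wt DX array. Il13ra2 stood at -1.19 (SE 0.41, adjusted p = 0.905) and -0.85 without that array. Il10 was lower too in the fit (-1.03, adjusted p = 0.961, and -0.74 without that array), but no FPR1-/- DX array detected it, so these are not measured sizes. An effect that passes in wt hosts and not in FPR1-/- hosts is therefore not shown to differ between them.

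**Figure D3:**
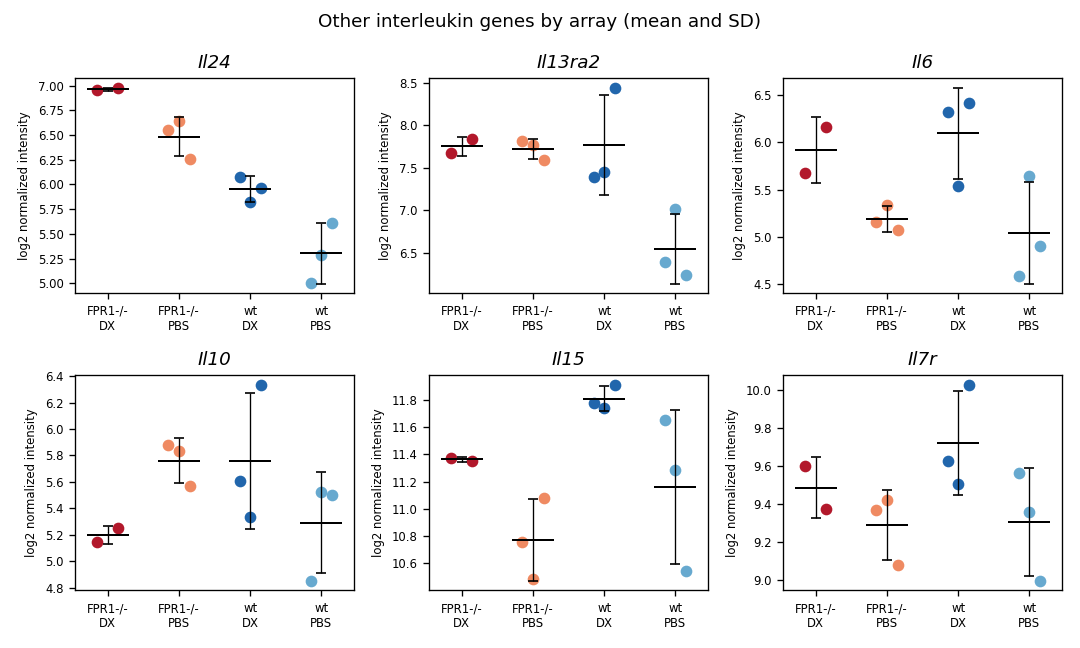
Log2 normalised intensity (vertical axes) of Il24, Il13ra2, Il6, Il10, Il15 and Il7r in each tumour, with points for single arrays, horizontal bars for group means and error bars for 1 SD (n = 2 for FPR1-/- DX, n = 3 for each other group). Il24 steps down from left to right through the 4 groups, and Il13ra2 is low in the wt PBS group.

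Host genotype was compared under PBS, without the drug. None of the 44 interleukin genes passed in limma, where 0.00941% of all genes (1 gene) did, and 6 of the 44 had an unadjusted p under 0.05 (13.6%, against 5.48% of all genes). Il24, a cytokine of the IL-10 family, had the smallest p. Its levels were 6.55, 6.64 and 6.26 in FPR1-/- PBS tumours, against 5.0, 5.29 and 5.61 in wt PBS tumours. All FPR1-/- arrays but only 1 of 3 wt arrays detected it, and the groups did not overlap (log2 difference 1.18, SE 0.17, adjusted p = 0.0604). Within chip 5 it was 0.64. Within chip 2 it was 1.63, but the wt value there (5.0) lay below that array's lowest detected signal (5.64). The chip 2 difference is therefore not a measured size.

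Il1b was 11.26, 11.69 and 11.62 in FPR1-/- PBS tumours, against 10.67, 10.43 and 10.43 in wt PBS tumours. The groups did not overlap, with a log2 difference of 1.01 (SE 0.22, adjusted p = 0.396), and it was 1.02 within chip 2 and 1.19 within chip 5. Il13ra2 was 7.82, 7.77 and 7.59 in FPR1-/- PBS tumours, against 6.39, 7.01 and 6.24 in wt PBS tumours, again without overlap (log2 difference 1.18, SE 0.27, adjusted p = 0.440), with 1.38 and 1.35 within the same chips. Il1a was detected on all FPR1-/- PBS arrays, at 5.65, 6.06 and 5.74, and on no wt PBS array, so its level was at least 1.32-fold higher (adjusted p = 0.819). These comparisons use the same 3 wt PBS tumours as the DX comparison in wt hosts, so the differences of Il1b, Il13ra2 and Il1a in these comparisons share those tumours. Over the 44 genes 7 were higher without overlap (15.9%, where all genes gave 4.9%) and 1, Il17rd, was lower (2.27%, where all genes gave 4.48%).

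Under DX the genotypes were compared with 2 FPR1-/- and 3 wt tumours. Both FPR1-/- DX arrays were on chip 4, and the wt DX arrays were on chips 1, 3 and 5. No chip held both groups, so between these groups genotype and chip cannot be told apart. None of the 44 genes passed and none of all genes did (0.0%), while 5 of the 44 had an unadjusted p under 0.05 (11.4%, against 6.7% of all genes). The differences were negative for 36 of the 44, and positive for 18.2% against 53.3% of all genes, with a median of -0.19 against 0.02. Without the third wt DX array 28 were negative, 36.4% were positive against 51.7% of all genes, and the median was -0.12 against 0.00816. Then 1 of the 44 had an unadjusted p under 0.05 (2.27%, against 4.59%). With all arrays there were 12 genes lower without overlap (27.3%, where all genes gave 11.7%) and 1 higher (2.27%, where all genes gave 15.4%). Without that array 12 were lower (27.3%, against 17.7% of all genes) and 5 higher (11.4%, against 20.3%). The higher one with all arrays was Il24, at 6.95 and 6.97 in FPR1-/- DX tumours, against 6.07, 5.82 and 5.97 in wt DX tumours (log2 difference 1.01, SE 0.19, adjusted p = 0.165).

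Among the lower genes were receptors. Il1r2 was 8.76 and 8.18 in FPR1-/- DX tumours, against 9.08, 8.95 and 9.49 in wt DX tumours (log2 difference -0.70, SE 0.24, adjusted p = 0.615), and -0.54 without the third wt DX array. Il2rb was 5.49 and 4.85 in FPR1-/- DX tumours, against 5.83, 5.54 and 6.11 in wt DX tumours (log2 difference -0.66, SE 0.23, adjusted p = 0.609). Il3ra, the alpha chain of the IL-3 receptor, was 5.80 and 5.61 in FPR1-/- DX tumours, against 6.79, 6.13 and 6.83 in wt DX tumours. Il15ra, which presents IL-15 to neighbouring cells, was 8.04 and 7.80 in FPR1-/- DX tumours, against 8.53, 8.07 and 8.76 in wt DX tumours. Its 3 other kept probes gave log2 differences of -0.68, -0.56 and -0.98. Il10 was 5.15 and 5.25 in FPR1-/- DX tumours, where no array detected it, against 5.61, 5.34 and 6.34 in wt DX tumours, where all did, a level at least 1.36-fold lower (adjusted p = 0.797).

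**Figure D4:**
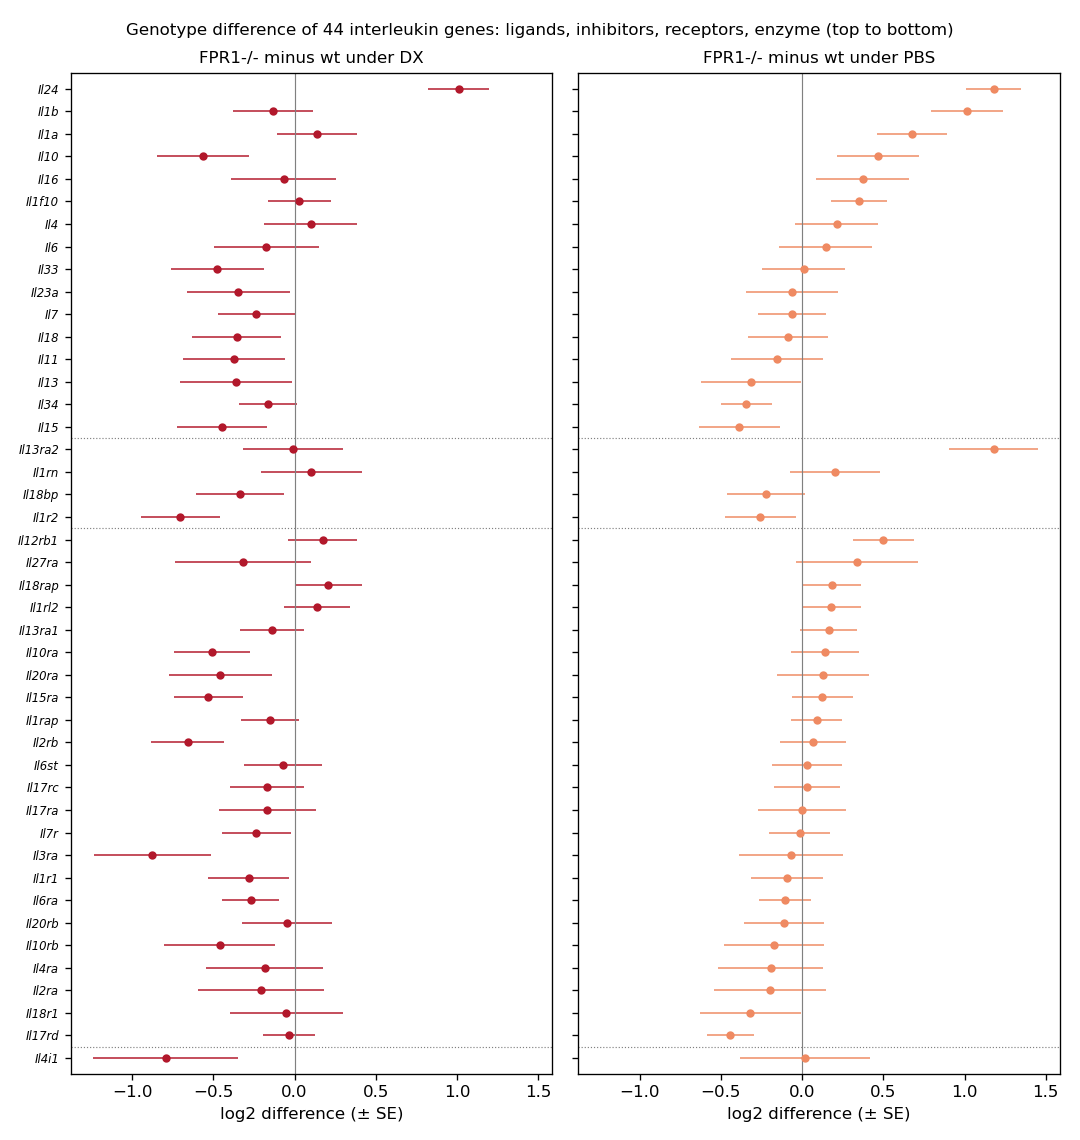
Log2 difference of FPR1-/- minus wt (horizontal axis, points with 1 SE) for each of the 44 interleukin genes under DX (left) and under PBS (right), ordered by role and then by the PBS value. No gene passed the adjusted test; Il24 lies near 1 in both panels, and 36 of the 44 points lie below 0 under DX.

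Il24 was higher in FPR1-/- than in wt tumours without overlap under both treatments. A contrast averaging the genotype difference over both treatments, added after these values had been seen, gave a log2 difference of 1.09 (SE 0.13, adjusted p = 0.0249). It was 1 of 4 genes to pass (0.0377% of all genes). The call was lost with chip as a fixed block (1.09, adjusted p = 0.176), without the third wt DX array (1.10, adjusted p = 0.0513), without wt PBS replicate 2 (adjusted p = 0.0724) and without any 1 of the 5 FPR1-/- arrays (adjusted p 0.05003 to 0.284). The size rests on the background correction, since without it the difference was 0.36 (adjusted p = 0.0478). The DX minus PBS log2 differences of Il24 were 0.48 (SE 0.19, adjusted p = 0.836) in FPR1-/- and 0.65 (SE 0.17, adjusted p = 0.142) in wt hosts, neither of which passed.

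The remaining ligands and receptors named here passed the adjusted test in none of these comparisons. Il34, a ligand of the CSF1 receptor, had 7.0 and 7.02 in FPR1-/- DX, 7.0, 7.03 and 6.98 in FPR1-/- PBS, 7.12, 7.25 and 7.17 in wt DX and 6.96, 7.60 and 7.48 in wt PBS tumours. Il11, a gp130 ligand of stromal cells, had 7.31 and 7.38 in FPR1-/- DX, 6.58, 7.35 and 7.38 in FPR1-/- PBS, 7.52, 7.50 and 8.14 in wt DX and 6.81, 7.77 and 7.21 in wt PBS tumours. Il17ra, the receptor shared by IL-17 cytokines, had 5.16 and 5.65 in FPR1-/- DX, 6.09, 5.47 and 6.03 in FPR1-/- PBS, 5.16, 5.35 and 6.21 in wt DX and 5.88, 5.72 and 6.0 in wt PBS tumours. For Il11 and Il17ra, DX and PBS tumours of the same host overlapped. Il11 and Il34 were lower without overlap in FPR1-/- DX than in wt DX tumours. In FPR1-/- hosts Il1r1 had 5.17 and 5.20 with DX and 5.0, 5.91 and 5.12 with PBS, and no FPR1-/- DX array detected it. Il6st had 8.42 and 8.29 in FPR1-/- DX and 8.21, 8.11 and 8.50 in FPR1-/- PBS tumours, and Il4ra had 5.76 and 6.19 in FPR1-/- DX and 5.92, 5.85 and 6.09 in FPR1-/- PBS tumours. Il7r had 9.60 and 9.37 in FPR1-/- DX and 9.37, 9.42 and 9.08 in FPR1-/- PBS tumours.

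**Figure D5:**
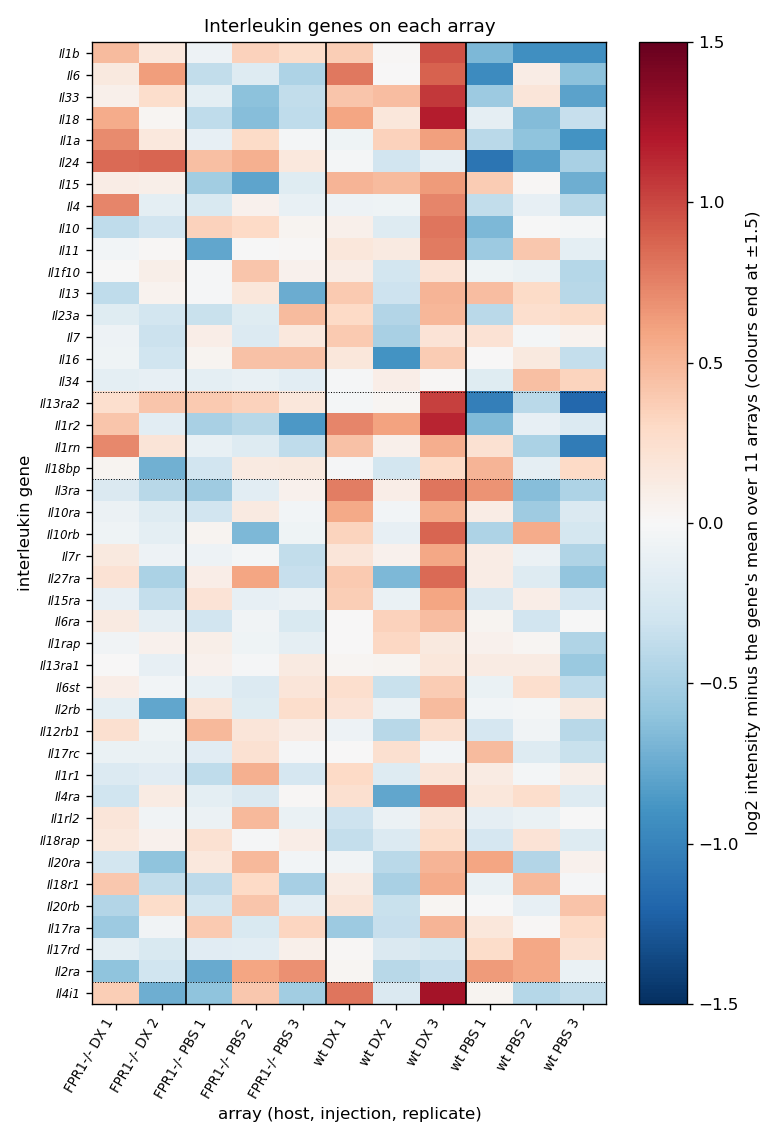
Departure of each interleukin gene (rows, ordered by role and then by the wt DX difference) from its own mean over the 11 arrays (columns), on the log2 scale, with red for higher and blue for lower and colours ending at 1.5. The third wt DX column is red for most rows. Most cells in the upper rows of the wt PBS columns are blue, but not all, as for Il6 and Il33 in the second wt PBS column.

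Lists of other genes in the same pathways were counted too. In the IL-1 signalling list, 24 of 28 genes were measured and none passed in wt hosts, where Tnfaip3, a brake on NF-kB, stood at 0.75 (adjusted p = 0.0746) and Nfkbiz at 0.67 (adjusted p = 0.0753). In that list, averaged over both genotypes, 1 gene rose, Nfkbiz (an IL-1 and IL-17 induced regulator of NF-kB targets), by 0.63 on the log2 scale (SE 0.11, adjusted p = 0.0319), and Casp4, an inflammatory caspase, stood at 0.45 (adjusted p = 0.0972). In the gp130 and IL-6 family list, 15 of 20 genes were measured and 1 rose on average, Osm, which encodes oncostatin M (1.29, SE 0.24, adjusted p = 0.0480). Osm stood at 1.53 in wt hosts (adjusted p = 0.0676), and the kinase gene Tyk2 at 0.39 on average (adjusted p = 0.0701). In the common gamma and beta chain list, 17 of 20 genes were measured and Csf2, which encodes GM-CSF, rose in wt hosts (0.73, SE 0.14, adjusted p = 0.0452) and on average (0.62, adjusted p = 0.0280). Csf3r, the G-CSF receptor gene, stood at 0.83 on average (adjusted p = 0.0590). In the list of genes responsive to IL-17, 6 of 11 measured genes rose in wt hosts given DX, where 0.555% of all genes did, and none passed in FPR1-/- hosts, where no gene of any kind did. Under PBS all 11 were positive for FPR1-/- minus wt and 1 passed, the chemokine gene Cxcl1 (1.34, SE 0.16, adjusted p = 0.0312), which was the 1 gene of all genes to pass there. Its neutrophil chemoattractant Cxcl2 rose by 3.79 on the log2 scale in wt hosts (adjusted p = 0.000611) and S100a9, a calcium-binding myeloid protein, by 3.17 (adjusted p = 0.000397). The mean log2 level of the list per array was 10.06 to 10.30 in FPR1-/- DX, 9.47 to 9.74 in FPR1-/- PBS, 9.98 to 10.36 in wt DX and 8.61 to 8.73 in wt PBS tumours. That list includes S100a8, S100a9 and Lcn2, which the neutrophil markers share.

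Some lists of cell markers held genes that passed for DX in wt hosts, where 0.555% of all genes rose and 0.0659% fell. Of 16 neutrophil markers 9 were measured and 3 rose in wt hosts given DX, with mean levels per array of 8.26 to 8.88 in FPR1-/- DX, 7.75 to 8.06 in FPR1-/- PBS, 8.0 to 8.74 in wt DX and 6.82 to 7.21 in wt PBS tumours. Monocyte and macrophage markers (15 of 17 measured, 2 higher in wt hosts given DX) spanned 9.20 to 9.56 in FPR1-/- DX, 9.41 to 9.54 in FPR1-/- PBS, 9.32 to 10.04 in wt DX and 9.20 to 9.38 in wt PBS tumours. Skeletal muscle markers (15 of 15 measured, 4 higher in wt hosts given DX) spanned 6.93 to 7.54 in FPR1-/- DX, 7.45 to 7.48 in FPR1-/- PBS, 8.30 to 9.36 in wt DX and 7.22 to 7.85 in wt PBS tumours. Mast cell markers (8 of 10 measured, 1 higher) reached 9.07 in the third wt DX tumour, against 6.99 and 7.84 in the other wt DX tumours. Red blood cell markers (4 of 6 measured, 2 lower) spanned 8.18 to 9.05 in wt DX and 9.82 to 11.65 in wt PBS tumours. No measured marker of T cells, NK cells, B cells, dendritic cells or endothelial cells passed for DX in wt hosts. The same held for adipocyte, keratinocyte, fibroblast and epithelial markers. Keratinocyte markers reached 7.75 in the third wt DX tumour, against 6.29 and 6.48 in the other wt DX tumours. Counts over these lists were not repeated without the third wt DX array. The part of these cells in the interleukin values was not tested.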

How the data were processed

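Mouse Illumina bead array data from 11 tumour samples were used. Per the file headers, the authors deposited a non-normalised intensity and a detection p-value for each of 45281 probes per array. They also deposited a table of log2 values of 19215 probes, and Partek is the tool named in the submitters' processing notes, with no version given. In that table the second wt DX and second wt PBS columns equalled the mean of replicates 1 and 3 to within 7e-05, so 9 columns were used, as an alternative only.

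In limma 3.58.1 (R 4.3.3), neqc inferred background from the detection p-values, added an offset of 16, quantile normalised and took log2. Probes with detection p under 0.05 on at least 2 arrays were kept (20433), and each gene was represented by its brightest probe (10623 genes). Symbols came from the platform annotation, which named 16496 probes. One model with 4 group means gave 6 contrasts (7 residual and 4.04 prior degrees of freedom), with moderated tests and Benjamini-Hochberg adjustment over all genes at 0.05. A seventh contrast was added after values had been seen. The fit was tested on simulated data with the same shifts planted in both DX groups. No genotype or chip effect was planted, so that test does not cover those. Groups followed the genotype and treatment labels. The arrays' number limits precision. BeadChip was taken from the array descriptions. Replicate numbers were checked for pairing, and 4 of 15 same-numbered pairs correlated above 0.1. All 4 involved an FPR1-/- DX array. The 2 arrays of that group have mirror-image deviations from its mean, so those correlations cannot decide on pairing. Replicate numbers were not used as pairs.

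Members named were those past the threshold in any contrast, the 3 with the smallest p in each, and Il1b, Il1a, Il1rn, Il1r1, Il1r2, Il33, Il18, Il6, Il6st, Il24, Il4ra, Il7r, Il10, Il17ra, Il11 and Il34; Il1rl1 and Il2rg are not analysed here. Others, such as Il15, Il10ra, Il15ra, Il3ra and Il17rd, were named after their values were seen. Members, lists and motifs were chosen with earlier results of these data known.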

Additional observations from a re-analysis of the deposited data

Results flagged for a closer look

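Il10, which encodes a cytokine that restrains inflammation, lay lower in FPR1-/- than in wt tumours under DX and higher under PBS, with no overlap under either treatment. Its log2 levels were 5.15 and 5.25 in FPR1-/- DX tumours, against 5.61, 5.34 and 6.34 in wt DX tumours, and 5.88, 5.83 and 5.57 in FPR1-/- PBS tumours, against 4.85, 5.53 and 5.50 in wt PBS tumours. The difference between the genotypes in their DX response was -1.03 in the fit (limma adjusted p = 0.961), which did not pass, and -0.74 without the third wt DX array. Neither FPR1-/- DX array detected Il10, so that group's values give only an upper bound. The gaps were narrow, from 5.25 to 5.34 under DX and from 5.53 to 5.57 under PBS. They lay near the lowest detected signals of the arrays, which were 5.29 to 5.64. The wt PBS value of 4.85 was below that array's lowest detected signal (5.64). No chip held both DX groups. The share of all genes with such a pattern was not counted.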

How the results depend on the processing

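Of 861 alternative values for 40 single-gene results, 776 kept the direction and the side of the threshold, 40 newly passed, 43 no longer passed and 2 turned direction. Most of the 40 had not passed at the start, so keeping their side meant staying short of the threshold. All 43 losses were of results that had passed. Il1b for DX in wt hosts kept its call in 14 of 22 alternatives, and Il1r2 in 9 of 22. For the averaged effects, Il1r2 (DX) kept it in 9 of 21 and Il24 (genotype) in 11 of 21. The 2 that turned were Il6 for DX in FPR1-/- hosts, at -0.0813 in the authors' table and -0.18 with chip as a fixed block. Il33 for DX in FPR1-/- hosts also turned with that block but was not among the 40. With that block, every value involving FPR1-/- DX tumours rests on wt PBS replicate 2, the only other array on their chip. For DX in wt hosts, where 2 interleukin genes passed, median scaling gave 0, a fit of the 2 groups alone 0, leaving out both chip 2 arrays (an alternative chosen after seeing the data) 0 and the authors' table gave 21. Leaving out 1 array in turn gave 0 to 5, with 0 without wt DX replicate 1 or 3, wt PBS replicate 2 or 3 or FPR1-/- PBS replicate 3, 1 without wt PBS replicate 1 or FPR1-/- PBS replicate 1 or 2, and 5 without wt DX replicate 2. For the averaged DX effect, where 1 passed, omitting background correction gave 3, the mean of a gene's probes 2, median scaling 0, chip as a fixed block 0, leaving out the chip 2 arrays 0, the authors' table gave 14 and leaving out 1 array gave 0 to 4 (4 without wt DX replicate 2, 2 without wt PBS replicate 1, and 0 without wt DX replicate 1 or 3, wt PBS replicate 3, FPR1-/- DX replicate 1 or any FPR1-/- PBS array). For the averaged genotype effect, where 1 passed, median scaling, the fixed chip block and leaving out the chip 2 arrays each gave 0, the authors' table gave 10 and leaving out 1 array gave 0 to 1 (0 without wt DX replicate 3, wt PBS replicate 2 or any FPR1-/- array). Where none passed, the authors' table gave 15 for DX in FPR1-/- hosts, 4 for genotype under PBS, 24 for genotype under DX and 23 for the difference of responses. The cause was not tested. Over the same 9 arrays, the median residual SD of all genes was 0.0856 in that table, against 0.204 here, and it called 1323 genes higher and 1442 lower for DX in wt hosts, against 59 and 7. With the fixed chip block Il1b (1.74, adjusted p = 0.0359) and Il6 (1.64, adjusted p = 0.0480) passed in wt hosts and Il1r2 did not (1.39, adjusted p = 0.101). Same-numbered samples were not treated as pairs (correlations of deviations -0.29 to 0.30). With a replicate block 2 genes passed for DX in wt hosts, Il1b (adjusted p = 0.0460) and Il18 (0.0470), and Il1r2 had 0.0838. On average Il18 passed in place of Il1r2 (0.0241 and 0.0756). Median scaling moved the median of all genes to 0.17 for DX in FPR1-/- hosts, 0.10 for the averaged DX effect, 0.20 for genotype under DX, 0.13 for the difference of responses and 0.14 for the averaged genotype effect. The medians of the 44 interleukin genes were then 0.19, 0.22, -0.06, -0.12 and -0.04 in the same order. Without background correction the averaged DX effect gave 90 genes higher and 18 lower, against 54 and 3. Probes not detected on all 11 arrays, such as those of Il6, Il10 and Il24, lie near background on some, which limits the size of their differences.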
